A study of Mus musculus with 12 samples.

Results

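The genes described here are 10 markers of neutrophils, the granulocytes that enter the uterus after mating: S100a8, S100a9, Slfn4, Ly6g, Padi4, Mmp8, Elane, Mpo, Fpr1 and Fpr2. They were measured by array in mouse endometrium, and the question was whether neutrophil RNA rises after mating. A member was read from rows of the deposited table whose annotation gives exactly 1 symbol, equal to the member. Where a gene had several such rows, the row with the highest mean over the 12 arrays was used. By this rule 8 of the 10 members had a row among the 35556 rows of the table, and Fpr1 and Fpr2 were not analysed here. A row is called dim where its mean log2 value over the 12 arrays lies under 7.28, the median of all rows. Of the 8 members, S100a8, S100a9, Mmp8, Elane and Mpo were dim, while Slfn4, Ly6g and Padi4 were not.

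All females were CBAF1, the F1 offspring of CBA and C57Bl/6 mice, aged 9 to 16 weeks. The Intact group had mated with intact males 8 h before collection, and the Control group was virgin and unmated. The Vasectomised group had mated, also 8 h before, with males whose vas deferens had been tied. Their ejaculate lacked sperm as well as the fluids of testis, epididymis and vas deferens, and the paper adds that surgery may alter accessory gland secretions. These cannot be told apart between the mated groups. All males were BALB/c. Endometrium was scraped from the uterus, and each of the 4 arrays of a group held RNA pooled from 4 females, so that the spread between arrays is a spread between pools. Controls were collected on the evening of pro-estrus according to the methods and in estrus according to the labels, so that mating, cycle stage and hour of collection cannot be told apart in a comparison with controls.

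Neutrophils are short-lived white cells that leave the bone marrow fully formed, carrying granules filled with enzymes made at successive stages of their development. Elastase and myeloperoxidase of the primary granules are made first, in promyelocytes, and their transcripts are lost as the cell matures, while genes of secondary and tertiary granules follow later. Mature cells in tissue rely on surface receptors for chemokines, formyl peptides and colony-stimulating factor, and on S100A8 and S100A9, which pair to form calprotectin, an abundant protein of the neutrophil cytosol.

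The 4 members whose arrays separated Intact from Control are shown first by the 250 bases before a RefSeq start site. Of these, 3 lay higher and 1 lower on all Intact arrays than on all Control arrays. Coordinates are on GRCm38.p6, and each sequence runs 5′ to 3′ on the strand of its gene. S100a8 is at chr3:90668821-90669070 on the plus strand, S100a9 at chr3:90695722-90695971 on the minus strand, Slfn4 at chr11:83174936-83175185 on the plus strand and Padi4 at chr4:140774204-140774453 on the minus strand. Capitals mark the only letters found of those searched.
S100a8: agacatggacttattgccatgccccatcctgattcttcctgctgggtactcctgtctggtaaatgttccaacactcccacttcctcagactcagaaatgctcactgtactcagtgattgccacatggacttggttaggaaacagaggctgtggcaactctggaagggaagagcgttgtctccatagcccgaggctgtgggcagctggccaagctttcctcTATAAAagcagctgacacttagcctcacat
S100a9: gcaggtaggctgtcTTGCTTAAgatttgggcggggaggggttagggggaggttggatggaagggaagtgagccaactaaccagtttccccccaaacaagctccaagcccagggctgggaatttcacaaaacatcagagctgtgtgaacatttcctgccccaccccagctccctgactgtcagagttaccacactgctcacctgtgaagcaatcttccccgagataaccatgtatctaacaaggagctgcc
Slfn4: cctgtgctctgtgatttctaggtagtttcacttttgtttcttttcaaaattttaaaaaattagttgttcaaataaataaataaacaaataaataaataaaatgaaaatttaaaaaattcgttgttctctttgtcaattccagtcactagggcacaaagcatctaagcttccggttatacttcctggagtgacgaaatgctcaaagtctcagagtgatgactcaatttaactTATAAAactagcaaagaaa
Padi4: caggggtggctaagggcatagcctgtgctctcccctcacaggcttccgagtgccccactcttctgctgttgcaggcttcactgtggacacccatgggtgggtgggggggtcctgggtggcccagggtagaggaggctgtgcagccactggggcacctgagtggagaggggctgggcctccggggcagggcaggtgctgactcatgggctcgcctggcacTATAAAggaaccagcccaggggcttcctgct
The capitals in S100a8, Slfn4 and Padi4 are TATAAA, the core letters of a TATA box. They stand 30 to 25, 19 to 14 and 31 to 26 bases before the start site used. The annotated span of Slfn4 begins at base 83175172 and that of Padi4, on the minus strand, at 140774239, so that both windows run into the gene. The TATAAA of Padi4 lies inside that span, and that of Slfn4 touches its start. TATAAA was added to the search after the sequences had been read, and 12.4% of 32851 mouse promoter windows of the same length hold it on either strand. In S100a9 the capitals are a match on the opposite strand to TTNNGCAA, letters bound by C/EBP factors, at 236 to 229 bases before the start, and 9.56% of the windows hold it. Neither the interferon-response letters (GAAA, any 2 bases, GAAA), found in 2.98% of windows, nor the NF-kB letters (GGG, any 2 bases, TTTCC), found in 1.41%, occurred in any of the 4 windows on either strand. S100a8 and S100a9 lie 22595 bases apart on chromosome 3.

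The deposited values were log2 expression. Array medians lay between 7.25 and 7.32, and the lowest correlation between arrays of a group was 0.983 across rows. All 13 genes of a list of endometrial epithelium and stroma were not dim, nor were 4 of 4 smooth muscle genes. Control arrays 1 and 2 stood apart from control arrays 3 and 4, and not in leukocyte RNA alone. The mean log2 level of 7 pan-leukocyte genes was 8.24 and 8.24 on control arrays 1 and 2, against 7.65 and 7.69 on control arrays 3 and 4. The mean of 13 monocyte and macrophage genes was 8.41, 8.39, 7.75 and 7.57 on control arrays 1 to 4. That of the 13 endometrial genes split in the same direction, at 10.94, 10.96, 10.63 and 10.55. The 4 smooth muscle genes did not, at 9.78, 9.73, 9.81 and 9.68. Where a fit with either pair of controls alone changed the call of a member or listed neutrophil gene, its value is given beside the result.

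Calls were made in limma and needed a 1.5-fold difference together with an adjusted p of 0.05 or less (Benjamini-Hochberg, over all rows). In Intact against Control, 2 members were higher (S100a9 and Slfn4), 1 was lower (Padi4) and 5 were not called. Among all rows 3.49% were called in this comparison, 1.95% higher and 1.55% lower. In Vasectomised against Control no member was higher and 1, Padi4, was lower, beside 1.43% of all rows called, 0.987% higher and 0.439% lower. In Intact against Vasectomised, S100a9 and Slfn4 were higher and no member was lower, beside 0.796% of all rows called, 0.394% higher and 0.402% lower. Of the rows with 1 symbol, to which the members belong, 4.79%, 1.79% and 0.858% were called in the 3 comparisons. The first 2 comparisons share the 4 control arrays. The median log2 fold-change of the 8 members was 0.13 for Intact against Control and 0.06 for Vasectomised against Control, beside 0.01 and 0.01 over all rows. In this bulk tissue, a change in neutrophil number, in RNA per neutrophil or in the RNA of other cells cannot be told apart.

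**Figure D1:**
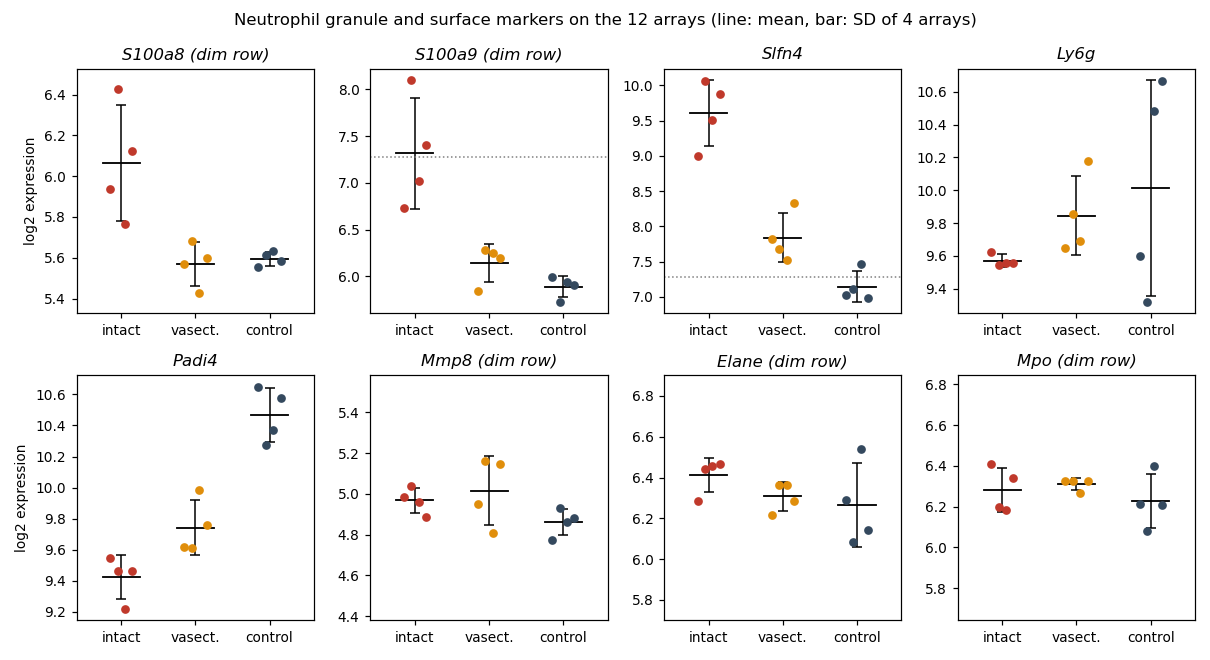
Log2 expression (y axis, a separate range for each gene) of the 8 members with a row on each array (points) of the Intact, Vasectomised and Control groups (x axis), with the mean (line) and SD of 4 arrays (bar) and, where it falls in range, the dim threshold of 7.28 (dotted). The Intact arrays of S100a9 and Slfn4 lie above all other arrays, those of Padi4 lie below all others, and the groups overlap for Mmp8, Elane and Mpo.

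S100A8 and S100A9 bind calcium and, as calprotectin, withhold metal ions from bacteria. S100a9 had log2 values of 6.73, 8.10, 7.02 and 7.41 on the Intact arrays, against 5.85, 6.29, 6.25 and 6.20 on the Vasectomised arrays and 5.99, 5.73, 5.94 and 5.91 on the Control arrays. Every Intact array was above every other array, whereas Vasectomised and Control arrays overlapped. S100a9 was 2.69-fold higher in Intact than in Control (log2 difference 1.43, SE 0.23, adjusted p = 0.00166) and 2.25-fold higher in Intact than in Vasectomised (1.17, SE 0.23, adjusted p = 0.0236). Vasectomised and Control differed by 0.26 on the log2 scale (95% interval -0.24 to 0.75, adjusted p = 0.606). The call between the mated groups was lost without Intact array 4 or Vasectomised array 1, 3 or 4, with adjusted p between 0.0585 and 0.0766, and without variance moderation (adjusted p = 0.0658).

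S100a8, the partner of S100a9, was not called. It had 5.94, 6.43, 5.76 and 6.12 on the Intact arrays, 5.57, 5.68, 5.43 and 5.60 on the Vasectomised arrays and 5.55, 5.61, 5.63 and 5.59 on the Control arrays. The Intact arrays again lay above all others, and the array highest for S100a9, Intact array 2, was also highest for S100a8. The fold-change was 1.38 against Control (log2 difference 0.47, SE 0.12, adjusted p = 0.0241) and 1.41 against Vasectomised (0.49, SE 0.12, adjusted p = 0.049). Both passed the adjusted p and fell short of the 1.5-fold threshold. Without Intact array 3 the difference from Vasectomised was 0.59 (adjusted p = 0.0291) and was called. Vasectomised minus Control was -0.03 (95% interval -0.28 to 0.23). S100a8 lay low on the array scale throughout, its row mean standing at the 20.13 percentile of all rows.

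The other 15 measured S100 genes included 0 called in Intact against Control, with a median log2 fold-change of 0.03. In Vasectomised against Control 1 was higher, S100g, a calcium-binding protein of epithelia (0.97, adjusted p = 0.00628). In Intact against Control the S100g difference was 0.55 (adjusted p = 0.0521). Squamous epithelium also makes S100A8 and S100A9. Of 11 squamous genes, 9 of them dim, Dsg3 was higher (1.04) and Krt13 lower (-0.72) in Intact than in Control. In Intact against Vasectomised all 11 differences were positive, with a median of 0.16, and Krt6b was called higher (1.13, adjusted p = 0.0486). The list mean was 6.80 to 7.13 on the Intact arrays, 6.59 to 6.72 on the Vasectomised arrays and 6.68 to 6.99 on the Control arrays, and its part in the S100a9 result was not tested.

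Slfn4, a Schlafen family gene of myeloid cells that interferon induces in mice, had the largest log2 fold-change of the members, 2.46 in Intact against Control. It had 8.99, 10.06, 9.51 and 9.88 on the Intact arrays, 7.82, 7.68, 7.53 and 8.33 on the Vasectomised arrays and 7.03, 7.11, 7.47 and 6.98 on the Control arrays. The 3 groups did not overlap, in the order Intact, Vasectomised, Control. Slfn4 was 5.51-fold higher in Intact than in Control (95% interval 3.94 to 7.72, adjusted p = 2.89e-05) and 3.41-fold higher than in Vasectomised (95% interval 2.43 to 4.78, adjusted p = 0.00568). The 1.62-fold difference of Vasectomised from Control (95% interval 1.15 to 2.27) was not called (adjusted p = 0.114). Both Slfn4 calls stood under every alternative run, each array left out in turn included.

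Of 7 further Schlafen genes, 2 were higher in Intact than in Control (1.95% of all rows) and 0 were called in either other comparison. Slfn1 had 7.12, 8.03, 7.71 and 8.05 on the Intact arrays, 7.34, 6.91, 6.83 and 6.99 on the Vasectomised arrays and 6.89, 6.63, 6.70 and 6.44 on the Control arrays, with a log2 difference of 1.06 between Intact and Control (SE 0.19, adjusted p = 0.00339). Slfn2, which keeps T cells and monocytes quiescent in mice, was 0.73 higher in Intact than in Control (SE 0.08, adjusted p = 9.9e-05). Its Vasectomised minus Control difference of 0.48 passed the adjusted p (0.00554) but not the fold threshold. The median of the 7 genes was 0.29 in Intact against Control and 0.19 in Vasectomised against Control. Of 13 other interferon-induced genes measured, 4 were higher in Intact than in Control (1.95% of all rows), among them Rsad2, Usp18 and Ifit3. In Vasectomised against Control 2 were higher (0.987% of all rows), while 0 were called in Intact against Vasectomised. The list mean lay at 10.77 to 10.96 on the Intact arrays, 10.51 to 10.73 on the Vasectomised arrays and 10.12 to 10.36 on the Control arrays. Their part in the Slfn4 result was not tested.

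Ly6g encodes the surface protein by which mouse neutrophils are usually stained and sorted. Its RNA was not called in any comparison, and all 3 of its differences were negative with all controls. The Intact arrays had 9.63, 9.54, 9.56 and 9.56, the Vasectomised arrays 9.65, 9.86, 9.69 and 10.18, and the Control arrays 9.60, 9.32, 10.48 and 10.67. The Intact arrays agreed within 0.08, while the Control arrays spanned 1.35, with arrays 3 and 4 high and arrays 1 and 2 low. Intact minus Control was -0.44 (95% interval -0.99 to 0.10, adjusted p = 0.330), Vasectomised minus Control was -0.17 (adjusted p = 0.771) and Intact minus Vasectomised was -0.27 (95% interval -0.82 to 0.27, adjusted p = 0.633). With control arrays 3 and 4 alone Ly6g was called lower in both mated groups, at -1.0 in Intact (adjusted p = 0.00112) and -0.73 in Vasectomised (adjusted p = 0.0115), and with control arrays 1 and 2 alone the sign turned, at 0.11 in Intact and 0.38 in Vasectomised, neither called. Control arrays 3 and 4 were also those low in leukocyte genes and in the mean of the endometrial list. The part of this split in the Ly6g values was not tested.

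Ly6g belongs to a cluster of near-identical genes on chromosome 15, so that its probes may read copies as well. Ly6a, Ly6c1 and Ly6c2 had no row of their own. Of the 6 further Ly6 genes measured, Ly6i was higher in all 3 comparisons, by 2.61 in Intact against Control (adjusted p = 1.34e-05), 1.46 in Vasectomised against Control (adjusted p = 0.00302) and 1.15 in Intact against Vasectomised (adjusted p = 0.0193). Ly6d, a surface protein of B cell progenitors and squamous epithelium, was higher in Intact than in Control (0.72, adjusted p = 0.00819). The other 4 were not called.

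PADI4 turns arginines of histones into citrulline, the step by which neutrophils unwind chromatin to cast extracellular traps. It was the member that fell. Padi4 had 9.54, 9.46, 9.22 and 9.46 on the Intact arrays, 9.62, 9.61, 9.98 and 9.76 on the Vasectomised arrays and 10.65, 10.27, 10.37 and 10.58 on the Control arrays. The 3 groups did not overlap, with Intact lowest. Padi4 in Intact was 48.4% of Control (log2 difference -1.05, SE 0.11, adjusted p = 8.36e-05) and in Vasectomised 60.4% of Control (-0.73, SE 0.11, adjusted p = 0.00366). The mated groups differed by -0.32 (95% interval -0.56 to -0.08), which was not called (adjusted p = 0.158).

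Epithelia also express deiminases. All 4 other members of the family had negative log2 fold-changes against Control in both mated groups, and Padi2 was called lower in Intact, with 12.56, 12.58, 12.54 and 12.48 on the Intact arrays, 13.10, 13.03, 13.09 and 12.89 on the Vasectomised arrays and 13.49, 13.34, 13.57 and 13.55 on the Control arrays (Intact minus Control -0.95, SE 0.07, adjusted p = 7.1e-06). Padi2 did not overlap between any of the groups, and the Vasectomised minus Control difference of -0.46 passed the adjusted p (0.00334) without reaching 1.5-fold. The Padi1 difference between Intact and Control was -0.39 (adjusted p = 0.00625) and was likewise under the fold threshold. The median of the 4 genes was -0.31 in Intact against Control and -0.15 in Vasectomised against Control.

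**Figure D2:**
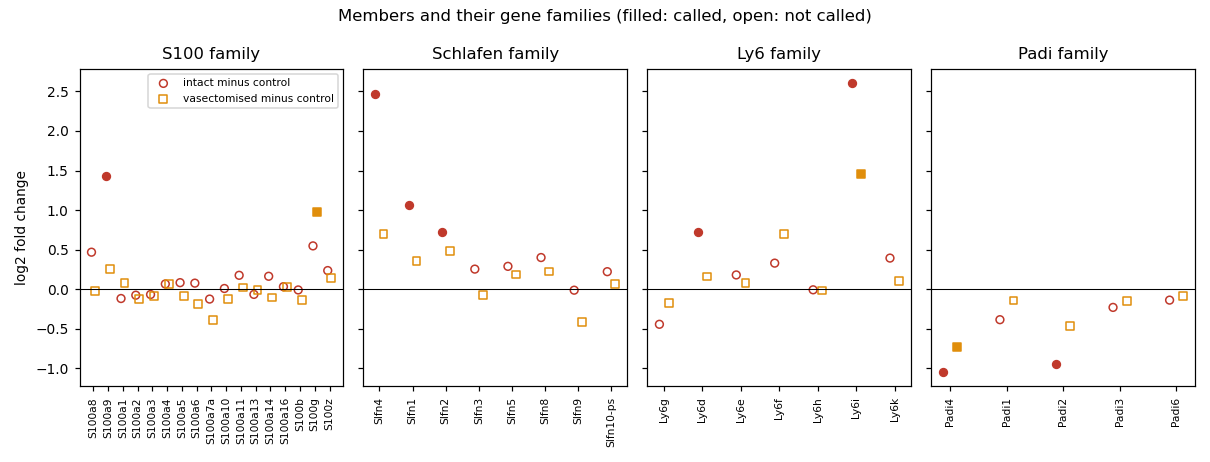
Log2 fold-change (y axis) of S100a8, S100a9, Slfn4, Ly6g and Padi4 and of the measured genes of their families (x axis), for Intact minus Control (circles) and Vasectomised minus Control (squares), filled where called. Slfn4, Slfn1 and Slfn2 are filled in Intact above 0, Padi4 and Padi2 below 0, and Ly6i is filled in both mated groups while Ly6g is open.

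The granule enzymes among the members were dim and were not called in any comparison. Elane, neutrophil elastase of the primary granules, had 6.28, 6.44, 6.46 and 6.47 on the Intact arrays, 6.22, 6.36, 6.36 and 6.28 on the Vasectomised arrays and 6.29, 6.08, 6.54 and 6.14 on the Control arrays. Mpo, the myeloperoxidase that makes hypochlorous acid, had 6.41, 6.20, 6.18 and 6.34 on the Intact arrays, 6.32, 6.33, 6.27 and 6.33 on the Vasectomised arrays and 6.21, 6.08, 6.40 and 6.21 on the Control arrays. Mmp8, the neutrophil collagenase of secondary granules, had 4.98, 5.04, 4.96 and 4.89 on the Intact arrays, 4.95, 5.16, 4.81 and 5.14 on the Vasectomised arrays and 4.78, 4.93, 4.86 and 4.88 on the Control arrays. In each of the 3 genes Intact overlapped with Control. Intact minus Control was 0.15 for Elane (95% interval -0.06 to 0.35), 0.06 for Mpo (-0.11 to 0.22) and 0.11 for Mmp8 (-0.07 to 0.28). The upper bounds correspond to 1.28-, 1.17- and 1.22-fold in array signal. How far the signal of such dim rows follows RNA was not tested. Against Vasectomised the Intact differences were 0.11, -0.03 and -0.05.

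The formyl peptide receptor genes Fpr1 and Fpr2 were not analysed, so that whether their RNA changed is not known here. Of their gene family, Fpr-rs3, Fpr-rs4, Fpr-rs6 and Fpr-rs7 had rows, all dim and none called, and these do not stand in for Fpr1 and Fpr2.

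Counting members whose groups did not overlap, 3 of 8 lay higher and 1 lower in Intact against Control, where 8.05% of all rows lay higher and 6.18% lower without overlap. In Vasectomised against Control 1 lay higher (7.06% of all rows) and 1 lower (3.62%). In Intact against Vasectomised 3 lay higher (6.62%), namely S100a8, S100a9 and Slfn4, and 2 lower (7.34%), namely Ly6g and Padi4.

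A list of 64 further neutrophil genes placed the members among others of their roles. Of these 55 had a row and 38 were dim. In Intact against Control 11 were higher (1.95% of all rows) and 0 lower (1.55%), with a median log2 fold-change of 0.20. In Vasectomised against Control 3 were higher (0.987% of all rows) and 0 lower (0.439%), with a median of 0.03. In Intact against Vasectomised 5 were higher (0.394% of all rows) and 0 lower (0.402%), with a median of 0.15. Over all rows the 3 medians were 0.01, 0.01 and 0.00.

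The called genes were mostly surface receptors. Of 19 receptors and adhesion molecules, 16 of them dim, 7 were higher in Intact than in Control (1.95% of all rows). In Vasectomised against Control 0 were called (1.43% of all rows). Cxcr2, the receptor through which CXC chemokines draw neutrophils into tissue, had 6.55, 7.78, 7.22 and 7.58 on the Intact arrays, 4.97, 5.62, 4.96 and 5.90 on the Vasectomised arrays and 4.89, 5.16, 5.04 and 5.08 on the Control arrays. It was 4.74-fold higher in Intact than in Control (log2 difference 2.25, SE 0.26, adjusted p = 0.000162) and 3.79-fold higher than in Vasectomised (1.92, SE 0.26, adjusted p = 0.00568). Csf3r, the receptor for the colony-stimulating factor that drives neutrophil production, had 7.12, 7.98, 7.44 and 8.04 on the Intact arrays, 6.87, 6.38, 6.28 and 6.72 on the Vasectomised arrays and 6.87, 6.59, 6.30 and 6.29 on the Control arrays. All Intact arrays of both receptors lay above all others. Csf3r was 1.14 higher in Intact than in Control (SE 0.21, adjusted p = 0.0046) and 1.08 higher than in Vasectomised (adjusted p = 0.0236), and the second call was lost without Intact array 2 or 4 or Vasectomised array 2, 3 or 4, at adjusted p between 0.0517 and 0.0777, and without variance moderation (0.0654).

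Trem1, which amplifies inflammatory signals of neutrophils and monocytes, Il1r2, a decoy receptor for interleukin-1, and the C-type lectin Clec4d were called in the same comparisons. In Intact against Control they were higher by 0.87, 0.84 and 0.90 (adjusted p = 0.00845, 0.00298 and 0.000425), and in Intact against Vasectomised by 0.81, 0.92 and 0.74 (adjusted p = 0.0352, 0.0118 and 0.0118). Their Vasectomised minus Control differences were 0.05, -0.07 and 0.16. The Trem1 call between the mated groups was lost without Intact array 2 or 4 or Vasectomised array 1, 2 or 3, at adjusted p between 0.0709 and 0.114, without variance moderation (0.0853) and with only the 2 groups fitted (0.0505). Clec4e, a lectin receptor for mycobacterial glycolipid, was higher in Intact than in Control (1.07, adjusted p = 0.0128), a call lost with control arrays 3 and 4 alone (0.97, adjusted p = 0.0789). Its difference of 0.83 between Intact and Vasectomised was not called (adjusted p = 0.0891), though it was without Intact array 3 (adjusted p = 0.0429) and with array weights (adjusted p = 0.0491). Selplg, the selectin ligand on most leukocytes, was higher by 0.92 in Intact against Control (adjusted p = 0.000905). Its Vasectomised minus Control difference of 0.56 was under the fold threshold (adjusted p = 0.0358) and was called without control array 1 (adjusted p = 0.0139) or 3 (adjusted p = 0.0372) and with control arrays 3 and 4 alone (adjusted p = 0.0296). Itgam, the integrin CD11b, differed by 0.36 between Intact and Control (adjusted p = 0.101).

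**Figure D3:**
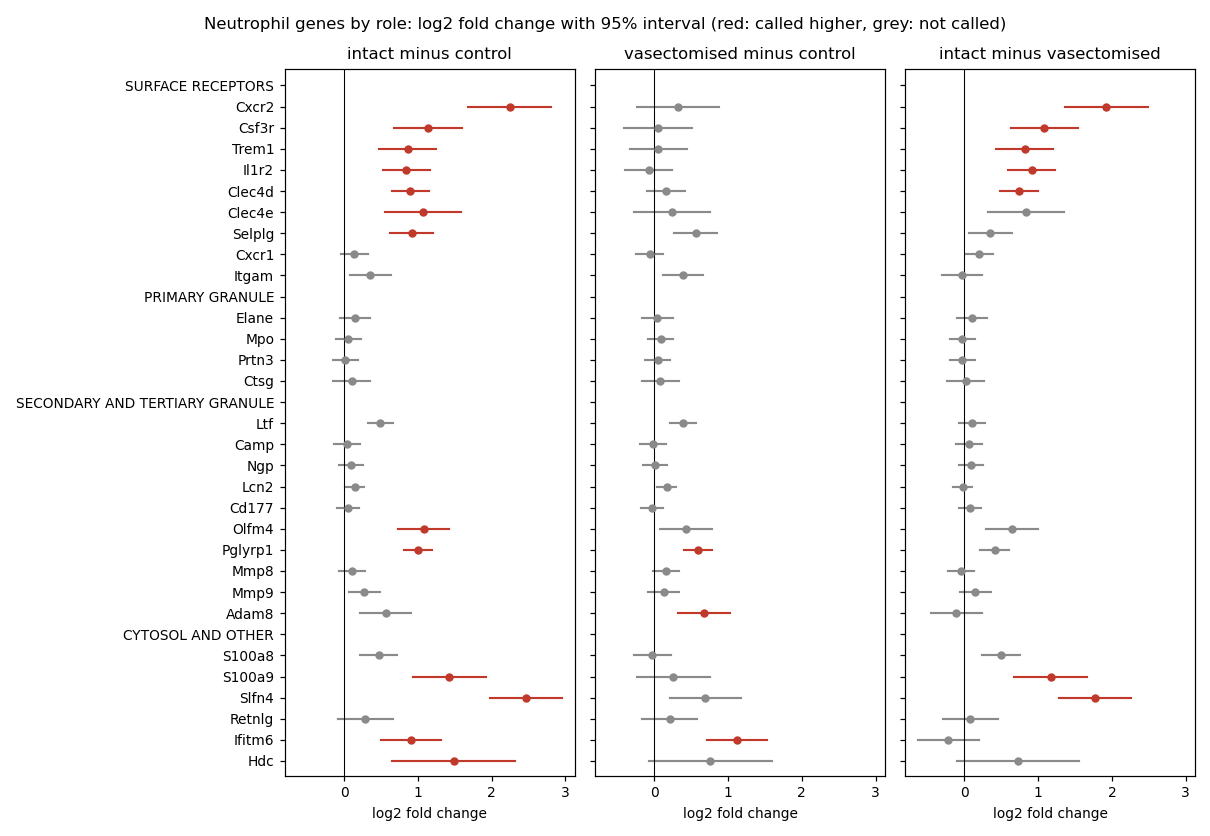
Log2 fold-change (x axis) with 95% interval of neutrophil genes grouped by role (y axis) for Intact minus Control, Vasectomised minus Control and Intact minus Vasectomised, in red where called higher and grey where not called. Receptors such as Cxcr2, at 2.25 in Intact minus Control, stand to the right of 0 in both panels that hold the Intact group. Primary granule genes lie near 0, with intervals that include 0, in all 3.

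In Intact against Control, the granule genes that were called were all of secondary granules. Of 4 further primary granule genes, all dim, 0 were called in any comparison, and the Intact minus Control difference was 0.02 for the proteinase Prtn3 and 0.10 for cathepsin G (Ctsg). Their mean log2 level was 5.90 to 6.12 on the Intact arrays, 5.94 to 6.03 on the Vasectomised arrays and 5.91 to 6.07 on the Control arrays. Of 8 secondary granule genes, 2, Olfm4 and Pglyrp1, were higher in Intact than in Control, beside 1.95% of all rows. Olfm4, the olfactomedin of a subset of neutrophils, had 7.57, 7.85, 7.27 and 7.19 on the Intact arrays, 6.80, 6.83, 6.60 and 7.07 on the Vasectomised arrays and 6.20, 6.64, 6.57 and 6.14 on the Control arrays (Intact minus Control 1.08, adjusted p = 0.00103). Pglyrp1, a bactericidal protein that binds peptidoglycan, already averaged 11.97 on the Control arrays, with its row mean at the 98.66 percentile of rows. Which cells made this RNA was not tested. Pglyrp1 was 1.00 higher in Intact (adjusted p = 2.1e-05) and 0.60 higher in Vasectomised (adjusted p = 0.00312) than in Control. The second value lies at the 1.5-fold threshold, and the call was lost without Vasectomised array 1 or 4 or Control array 3 or 4, under quantile normalization (0.58), under median centring (0.58) and with control arrays 1 and 2 alone (0.47), although the adjusted p stayed at 0.0185 or less in each.

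Lactoferrin (Ltf), which uterine epithelium also makes, differed by 0.49 between Intact and Control (adjusted p = 0.00179), under the fold threshold. For other secondary granule genes the Intact minus Control difference was 0.04 for the cathelicidin Camp, 0.09 for Ngp, 0.05 for Cd177 and 0.14 for Lcn2, and none was called. Lcn2 lay between 13.93 and 14.21 on all 12 arrays, at the 99.96 percentile of rows, and whether its probes could still register a rise at that level was not tested. Among 4 tertiary granule genes the gelatinase Mmp9 was at 0.28 (adjusted p = 0.0963). Adam8, a membrane protease, was called higher in Vasectomised than in Control (0.68, adjusted p = 0.0354), a call lost without any 1 of the 4 Vasectomised arrays or without Control array 1, 3 or 4, at adjusted p between 0.0527 and 0.0974. It was also lost without variance moderation (0.0873), with only the 2 groups fitted (0.0836) and with control arrays 1 and 2 alone (0.43, adjusted p = 0.106). The Adam8 difference of Intact from Control (0.56, adjusted p = 0.0435) was under the fold threshold and was called without Control array 2 (0.70, adjusted p = 0.00868), with control arrays 3 and 4 alone (0.81, adjusted p = 0.00816) and with array weights (0.59, adjusted p = 0.0337). None of 5 oxidase genes and none of 3 maturation factors was called.

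Of 12 other neutrophil genes, 2 were higher in Intact than in Control, beside 1.95% of all rows. Ifitm6, a membrane protein of myeloid cells, was higher by 0.90 in Intact (adjusted p = 0.00893) and by 1.12 in Vasectomised (adjusted p = 0.00641), and both calls were lost with control arrays 1 and 2 alone (adjusted p = 0.0777 and 0.0529). Hdc, the enzyme that makes histamine, had 9.92, 9.92, 9.58 and 10.07 on the Intact arrays, 9.14, 8.79, 9.15 and 9.51 on the Vasectomised arrays and 8.11, 9.90, 7.84 and 7.70 on the Control arrays, with control array 2 among the Intact values. The call for the 1.48 difference of Intact from Control (adjusted p = 0.0275) was lost without Intact array 1, 2 or 4 or Control array 1, 3 or 4, at adjusted p between 0.061 and 0.0759, without variance moderation (0.0745) and with only the 2 groups fitted (0.0729). With control arrays 1 and 2 alone the Intact minus Control difference was 0.87 (adjusted p = 0.187). Without control array 2 Hdc was also called in Vasectomised against Control (adjusted p = 0.00228) and in Intact against Vasectomised (adjusted p = 0.0311, and 0.035 with only those groups fitted), and with control arrays 3 and 4 alone in Vasectomised against Control (1.38, adjusted p = 0.00255).

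Genes higher in Intact often shared the pool that stood highest. Over S100a8 and the 13 neutrophil genes called higher against Control, Intact array 2 held the highest Intact value in 9 of 14 and array 4 in 3, while array 1 held the lowest in 7 and array 3 in 5. In 11 of the 14 every Intact array lay above every other array, the exceptions being Selplg, Ifitm6 and Hdc. Apart from S100a8, these genes were picked for being called higher in Intact than in Control, so that this count largely follows from the choice. Genes that vary together are also not separate evidence about the pools. The low place of Intact array 1 was not particular to neutrophil genes. It had the lowest Intact mean of the pan-leukocyte (7.58), monocyte and macrophage (7.78), endometrial (10.28) and smooth muscle lists (9.11). In the interferon-induced list it had the highest (10.96).

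Most signals that recruit neutrophils were higher in Intact than in Control. Of 12 measured chemokines, cytokines and adhesion molecules, 11 were higher in Intact than in Control, 6 in Vasectomised than in Control and 5 in Intact than in Vasectomised. The shares of all rows higher were 1.95%, 0.987% and 0.394%. Against Control, the CXCR2 ligand Cxcl5 was higher by 4.23 in Intact (adjusted p = 5.47e-06) and 2.37 in Vasectomised (adjusted p = 0.0014), and Csf3, the ligand of Csf3r, by 2.10 (adjusted p = 2.15e-06) and 1.26 (adjusted p = 0.000366). The list mean was 8.58 to 9.18 on the Intact arrays, 7.75 to 8.33 on the Vasectomised arrays and 6.86 to 7.11 on the Control arrays, with no overlap between groups. The Intact minus Vasectomised differences of Cxcl5 (1.86, adjusted p = 0.0118) and Csf3 (0.84, adjusted p = 0.00838) were also called.

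Few markers of other leukocytes were called, and of all rows only 3.49% were called in Intact against Control. None of 7 pan-leukocyte genes was called in any comparison, and their mean was 7.58 to 8.07 on the Intact arrays, 7.70 to 8.05 on the Vasectomised arrays and 7.65 to 8.24 on the Control arrays. Of 13 monocyte and macrophage genes 1 was called, Cd14, the lipopolysaccharide co-receptor, which was 1.60 higher in Intact and 1.18 higher in Vasectomised than in Control. The list mean was 7.78 to 8.32 on the Intact arrays, 7.86 to 8.40 on the Vasectomised arrays and 7.57 to 8.41 on the Control arrays. Mertk, a receptor by which macrophages take up dying cells, and C1qb, a complement component, had Intact minus Control differences of -0.81 (adjusted p = 0.0529) and -0.50 (adjusted p = 0.414), and the Intact arrays of Mertk lay below all Control arrays. None of 9 eosinophil and mast cell genes, 7 T and NK cell genes or 4 B cell genes was called. Of these lists 9, 6 and 3 genes were dim, so that the lack of calls does not show these cells to be unchanged. In a list of 7 sperm genes, all dim and none called, the mean was 6.25 to 6.34 on the Intact arrays, 6.13 to 6.15 on the Vasectomised arrays and 6.05 to 6.25 on the Control arrays.

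**Figure D4:**
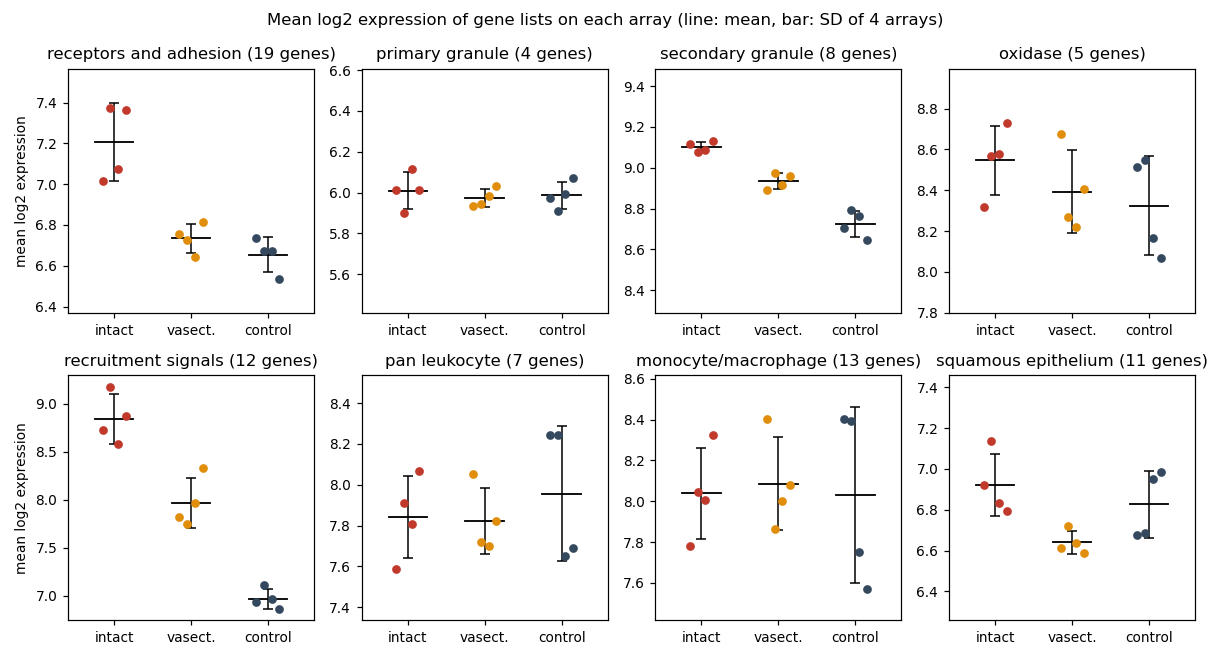
Mean log2 expression (y axis, a separate range for each list) of 8 gene lists on each array (points) of the Intact, Vasectomised and Control groups (x axis), with the mean (line) and SD of 4 arrays (bar). Receptors and recruitment signals are highest on the Intact arrays, primary granule genes lie between 5.90 and 6.12 on all arrays, and pan-leukocyte genes on Control arrays 1 and 2, at 8.24, lie above those on Control arrays 3 and 4.

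The genes whose profile over the 12 arrays was most like that of each called member were sought among 10799 genes that were not dim. This left out S100a8 (r = 0.918 with S100a9) and 38 of the 55 further neutrophil genes with a row, so that most neutrophil genes could not be found. These correlations take in the differences between groups and have no test. For S100a9 they were Sh2d4a (r = 0.967), Shroom1 (0.961) and Cpne2 (0.950), for Slfn4 they were Shroom1 (0.984), Cpne2 (0.974) and Saa3 (0.971), and for Padi4 they were Hspb1 (0.981), C2cd3 (0.967) and Nav2 (0.963). Saa3, an acute-phase protein, averaged 8.73 ± 0.53 on the Intact arrays, 7.33 ± 0.38 on the Vasectomised arrays and 6.29 ± 0.24 on the Control arrays (SD, n = 4 each). Hspb1, a small heat shock protein, averaged 10.38 ± 0.09 on the Intact arrays, 10.80 ± 0.22 on the Vasectomised arrays and 11.75 ± 0.23 on the Control arrays (SD, n = 4 each).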

How the data were processed

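Each of 12 Affymetrix Mouse Gene 1.0 ST arrays received 300 ng of endometrial RNA. In Partek Genomics Suite the authors corrected background by RMA and probe signals for GC content, and took the mean over probes. The deposited values are on the log2 scale. Neither versions nor a quantile step are stated in the sources used here. No further normalization was applied.

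Rows were named through the array annotation; 21789 rows had 1 symbol, 1621 several and 12146 none. All 35556 rows were fitted with 1 mean per group in limma 3.58.1 under R 4.3.3 (eBayes without trend, with 9 residual degrees of freedom and a prior of 3.26). Groups came from the sample labels. No detection calls were used, and the number of arrays limits the precision. The code was tested on simulated data.

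Members and lists were chosen with earlier results of these data known. The text names all members, listed neutrophil, family and recruitment genes that were called, fixed neutrophil markers, the leading genes of each list, and the 3 genes most like each called member. Promoters came from RefSeq (GRCm38.p6). Alternatives covered normalization, moderation, array weights, a replicate block, dim rows, thresholds, the row chosen per gene and leaving out each array. Fits with control arrays 1 and 2 or 3 and 4 alone were chosen after seeing the data.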

Additional observations from a re-analysis of the deposited data

Results flagged for a closer look

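In 6 of 90 groups of 4 arrays, over 30 genes, 1 array lay far from the other 3, and chance alone flags about 1 group in 20. Elane was 6.28 on Intact array 1, against 6.44 to 6.47 on the other Intact arrays. Mpo was 6.27 on Vasectomised array 3, against 6.32 to 6.33. Prtn3 was 7.0 on Vasectomised array 2, against 6.82 to 6.83. Ltf was 13.7 on Intact array 3, against 13.77 to 13.78. Camp was 6.69 on Intact array 2, against 6.97 to 7.03. Cd177 was 6.87 on Vasectomised array 4, against 6.92 to 6.93. In none of these genes was a comparison called.

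By a limma test of the difference itself, 7 neutrophil genes were called between Intact and Vasectomised females. They were 2 of the 8 members and 5 of the 55 further neutrophil genes with a row, beside 0.796% of all rows. Intact minus Vasectomised was 1.17 for S100a9, 1.77 for Slfn4, 1.08 for Csf3r, 1.92 for Cxcr2, 0.81 for Trem1, 0.74 for Clec4d and 0.92 for Il1r2 on the log2 scale. The calls of S100a9, Csf3r and Trem1 were lost without variance moderation (adjusted p = 0.0658, 0.0654 and 0.0853) and when some single arrays were left out.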

How the results depend on the processing

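No called result changed direction under any alternative, though uncalled differences near 0 did. The 3 members called in Intact against Control numbered 2 with dim rows left out, where S100a9 was not tested, 4 with no fold threshold or with control arrays 3 and 4 only, and 3 under every other alternative. In Vasectomised against Control the count of 1 member became 0 at a 2-fold threshold, and 2 with control arrays 3 and 4 only, which added Ly6g. In Intact against Vasectomised the count of 2 became 1 without variance moderation and 1 with dim rows left out, and lay between 1 and 3 with each array left out. Of the further neutrophil genes, the 11 called in Intact against Control became 3 with dim rows left out and 6 at a 2-fold threshold, and lay between 10 and 12 with each array left out. The 3 in Vasectomised against Control became 6 with no fold threshold, 1 at a 2-fold threshold, 0 with control arrays 1 and 2 only and 5 with control arrays 3 and 4 only, and lay between 1 and 4 with each array left out. The 5 in Intact against Vasectomised became 3 without variance moderation, 0 with dim rows left out and 2 at a 2-fold threshold, and lay between 3 and 6 with each array left out. The cause was not tested.

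Replicate numbers are shared between groups, but only 2 of 12 same-number pairs correlated above 0.1 (r from -0.255 to 0.205), so the numbers did not pair the arrays. With the number as a replicate block the member counts were 3, 1 and 2, and the further neutrophil genes numbered 11, 2 and 3 for Intact against Control, Vasectomised against Control and Intact against Vasectomised. The block ended the calls of Csf3r (adjusted p = 0.0538) and Trem1 (0.0638) in Intact against Vasectomised and of Adam8 (0.0828) in Vasectomised against Control.

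Most neutrophil genes were dim (38 of 55), and a difference of a dim gene that missed the threshold is not shown to be absent. Pools of 4 females say nothing of single animals.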
